A study of Homo sapiens with 30 samples.

Results

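The genes of the CD3 and zeta chains, the receptor's adaptor *TRAT1*, the beta chain constant part and the pre-TCR alpha chain were described at the RNA level in LOUCY, an established human cell line from a T cell leukemia of early thymocyte progenitors (ETP-ALL). The genes were fixed by name and are *CD3D*, *CD3E*, *CD3G*, *CD247*, *TRAT1*, *TRBC1* and *PTCRA*, 7 of 19775 measured genes. On the Affymetrix HG U133 Plus 2.0 array 12 of 54613 probe sets carry 1 of these symbols alone, and where a gene had several, the brightest over all 30 arrays stands for it and the others serve as a check. Levels are log2 values from robust multiarray averaging (RMA), so 1 unit is a doubling, and the level of 1 gene cannot be set against that of another.

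LOUCY cells with a doxycycline (dox) inducible MEF2C construct, here the MEF2C line, were grown with dox (0.5 μg/mL) and without, either in medium or on the stroma OP9-GFP or OP9-DL1. Another line with inducible MEF2C and intracellular NOTCH1 (ICN), and one with ICN alone, were grown in medium, again with dox and without. These are 10 conditions with 3 arrays each. OP9 is a mouse stromal line, OP9-DL1 displays the Notch ligand Delta-like 1, and OP9-GFP is its counterpart without that ligand. The study's methods describe lentiviral transduction and flow sorting of LOUCY cells, a line that has high endogenous MEF2C, and do not describe the lines with ICN. The inducible MEF2C described there is codon optimised, lacks the β domain and is linked to a blue fluorescent protein. A figure legend of the study gives 24 hours of MEF2C induction, and for these arrays the durations of coculture and of ICN induction are not given in the sources used here. No array holds cells without a construct that received dox, so an effect of dox and an effect of the induced gene cannot be told apart. The labels number the 3 arrays of a condition as replicates without saying that they are separate cultures, and the p-values therefore reflect array to array spread, possibly a technical one.

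A T cell receptor has a variable pair of chains, alpha and beta or gamma and delta, that have no signaling part of their own. They reach the surface only together with CD3 delta, epsilon and gamma and the zeta chain, whose tails are phosphorylated by LCK and then bound by ZAP70. In thymocytes that have rearranged the beta chain only, PTCRA takes the place of the alpha chain and forms the pre-TCR, and Notch signals accompany these early steps.

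Over the 10 conditions *TRAT1* varied most of the 7 genes and *TRBC1* least. *TRAT1*, which encodes an adaptor (TRIM) that sits in the receptor complex, spanned 4.28 log2 units as measured between its lowest and highest condition mean, and 79 of 19775 genes (0.399%) had a larger measured span. Its lowest mean, 4.31 in medium with MEF2C induced, is under the median of every array (4.76 to 4.84) and is not shown to be above background, so the span may be understated and no fold is given. *CD3D* spanned 1.93, *CD3G* 1.79, *CD3E* 1.08 and *CD247* 0.69, against a median of 0.40 over all genes. *PTCRA* spanned 0.32 and *TRBC1* 0.27, below that median. The *PTCRA* probe sets averaged 6.54, 6.45 and 4.68 over the arrays. The last is under the median of every array, so expression of *PTCRA* is not shown by all its probe sets. *TRBC1* read 13.13 to 13.49 on all arrays, near the highest value of any probe set (13.99). Whether signal is compressed at that level was not tested, so changes of *TRBC1* and its span may be understated.

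**Figure D1:**
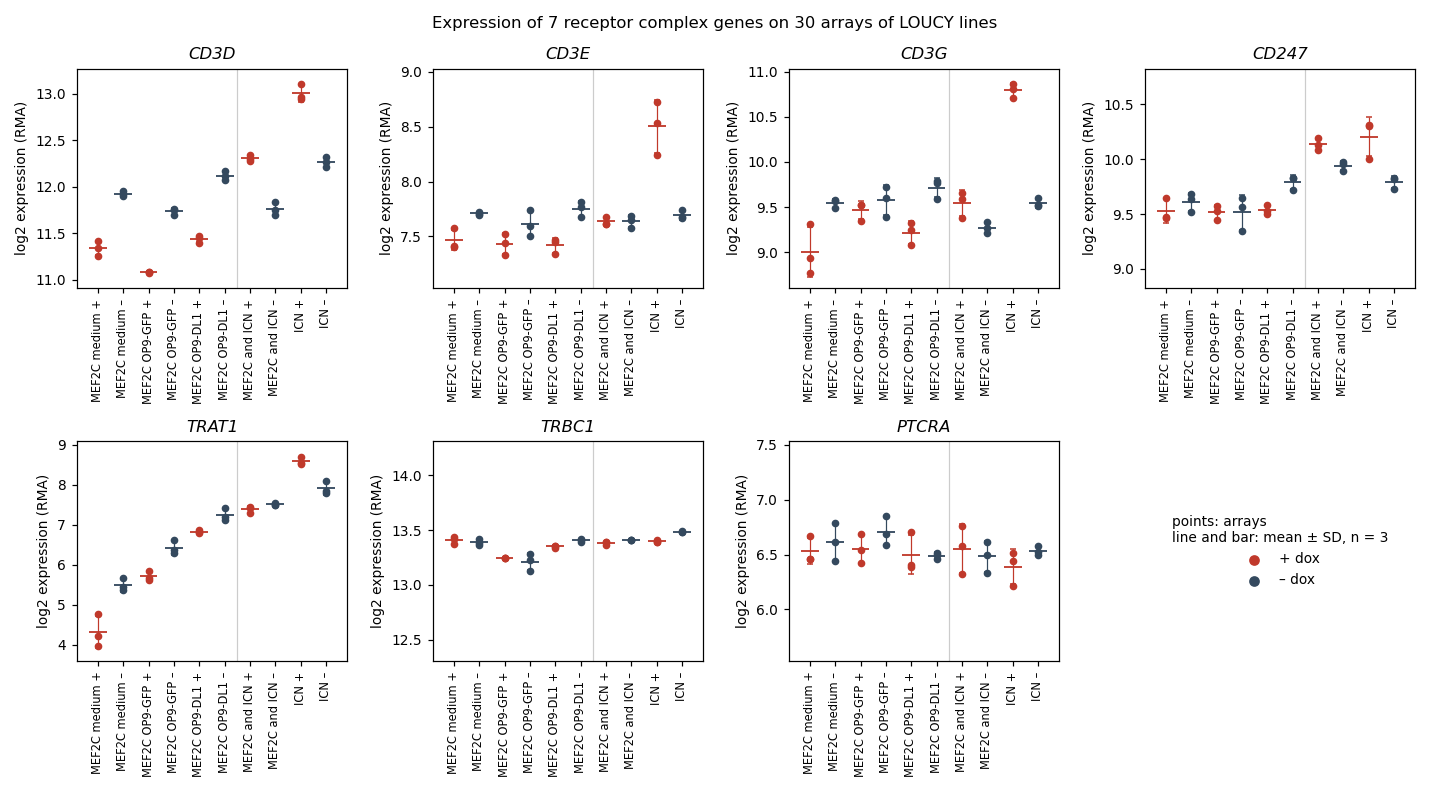
Log2 expression of the 7 genes (vertical axes, each over a range of its own) in the 10 conditions (horizontal axes). Points are arrays, lines and bars are the mean ± SD of 3 arrays, red marks conditions with dox and dark blue those without, and the grey line parts the MEF2C line (left) from the lines with ICN (right). *CD3D*, *CD3E*, *CD3G* and *TRAT1* are highest with ICN induced, where *TRAT1* averages 8.59, and *TRAT1* is lowest in medium with MEF2C induced (4.31).

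The 3 CD3 genes lie in 1 cluster on chromosome 11 (GRCh38.p14), *CD3E* at 118304730 to 118316173, *CD3D* at 118338954 to 118342705 and *CD3G* at 118344344 to 118355161. *CD3D* and *CD3G* are neighbours there, and their condition means correlated at 0.82 over 10 conditions, while *CD3E* and *CD3G* correlated at 0.95. With ICN induced *CD3E* and *CD3G* averaged 8.50 and 10.79, and at most 7.75 and 9.72 elsewhere. That 1 condition therefore weighs heavily in any correlation of either gene given here. *CD247* is on chromosome 1 (167430640 to 167518529), *TRAT1* on chromosome 3 (108822786 to 108855005), *TRBC1* on chromosome 7 (142791694 to 142793141, a constant region segment) and *PTCRA* on chromosome 6 (42916053 to 42925838). *PTCRA* correlated negatively with each of the other 6 (-0.59 to -0.41), and over the 30 arrays at -0.39 to -0.24. Its condition means spanned only 2.22 times its SD within conditions, and it passed in 0 comparisons. The conditions share lines, and the correlations of condition means are descriptions of 10 points.

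The stretches just upstream of *CD3D* and *TRAT1* are shown because both genes were higher on the Notch ligand with dox and without. They are the 250 bases before the start site in RefSeq (GRCh38.p14), 5′ to 3′ in the direction of the gene, with capitals for the letters of GTGGGAA, the core recognised by the Notch partner RBPJ, read on the opposite strand.
*CD3D*, chr11:118342706-118342955, minus strand: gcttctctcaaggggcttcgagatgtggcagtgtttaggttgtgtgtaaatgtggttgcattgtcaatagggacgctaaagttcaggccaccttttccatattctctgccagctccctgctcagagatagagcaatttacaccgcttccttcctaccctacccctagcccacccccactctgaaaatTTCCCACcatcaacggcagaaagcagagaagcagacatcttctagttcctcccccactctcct
*TRAT1*, chr3:108822536-108822785, plus strand: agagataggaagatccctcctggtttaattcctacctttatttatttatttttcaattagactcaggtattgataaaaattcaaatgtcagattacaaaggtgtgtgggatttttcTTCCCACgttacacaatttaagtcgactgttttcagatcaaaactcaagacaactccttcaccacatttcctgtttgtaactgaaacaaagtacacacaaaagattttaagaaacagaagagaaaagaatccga
Of the 7 genes, 4 are in the promoter table used (*CD3D*, *CD247*, *TRAT1* and *PTCRA*). GTGGGAA on either strand occurs once in each of these 2 windows, beginning 63 bases before the start site in *CD3D* and 134 in *TRAT1*, and in 5.43% of 35116 promoter windows of 250 bases. It has 0 matches in the windows of *CD247* and *PTCRA*. The E box CANNTG (61.8% of windows) occurs once for *TRAT1*, 2 times for *CD247*, 4 times for *PTCRA* and 0 times for *CD3D*, and the MEF2 consensus (2.8% of windows) has 0 matches in all 4. A match of letters is not a binding site, and these arrays do not measure binding.

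The labels were checked with *MEF2C*, *NOTCH1*, *NOTCH3* and Notch targets. With dox 1 *MEF2C* probe set rose in each culture of the MEF2C line (0.53 in medium, 1.23 on OP9-GFP, 0.63 on OP9-DL1) and in the MEF2C and ICN line (0.66), while the other 2 fell by 0.98 to 2.28 on the log2 scale in these comparisons. According to a legend of the study a single *MEF2C* probe set covers the construct and the rest read the endogenous gene, without naming them in the text. *DTX1*, a Notch target, rose by 2.31 with ICN and by 2.78 with MEF2C and ICN, and did not pass on OP9-DL1 against OP9-GFP (0.09 without dox and -0.11 with dox). The brightest *NOTCH1* probe set did not pass with ICN (0.01) or with MEF2C and ICN (0.07). The dimmer one rose by 0.56 and 0.81, from means of 4.32 and 4.24 that are under the array medians. For *NOTCH3* the brightest did not pass (0.08 and 0.15). The dimmer one rose with ICN (1.54, from 4.33) and did not pass with MEF2C and ICN (0.32). The Notch target *HES1* (brightest of 3 probe sets) was higher on OP9-DL1 than on OP9-GFP by 1.89 without dox and 3.19 with dox. On OP9-GFP, which lacks the ligand, it was higher than in medium by 1.86 without dox and by 0.38 with dox. With MEF2C induced *HES1* fell from 7.45 to 5.64 in the OP9-GFP coculture (log2 fold change -1.81). In the OP9-DL1 coculture it fell from 9.34 to 8.83 (-0.51), and in medium the change of -0.33 did not pass (adjusted p = 0.0511 in limma). The next brightest *HES1* probe set did fall in medium (-0.50, adjusted p = 0.0033). The wider gap with dox thus goes with a lower *HES1* level in the OP9-GFP coculture, not with a higher level beside the ligand. In the lines with ICN *HES1* was high in the arrays labelled without dox. Without dox *HES1* averaged 10.19 in the ICN line and 9.34 in the MEF2C and ICN line, against 5.59 in the MEF2C line in medium, and with dox it rose by 0.40 in the ICN line and by 1.57 in the MEF2C and ICN line. The next brightest *HES1* probe set did not pass in the ICN line (0.30, adjusted p = 0.0730 in limma) and rose by 1.37 in the MEF2C and ICN line. *DTX1* averaged 5.81 in the ICN line without dox, against 4.26 in the MEF2C line. In the MEF2C and ICN line without dox *DTX1* averaged 4.48 and did not pass. Each response to dox in the lines with ICN is a difference from these baselines.

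On the list of T lineage markers, of which *PTPRC* (CD45) and *CD34* are not particular to T cells, *PTPRC* had condition means of 9.98 to 11.64. Those of *CD7* were 6.56 to 7.68. *CD1A*, a marker of cortical thymocytes, ran from 4.79 to 9.70, a wider span than that of any of the 7 receptor genes, and without dox was higher by 4.22 in the ICN line and by 2.95 in the MEF2C and ICN line than in the MEF2C line. It rose with ICN by 0.70 and with MEF2C and ICN by 1.57, rose on OP9-DL1 against OP9-GFP without dox by 0.82, and fell with MEF2C on OP9-DL1 (log2 fold change -1.24). Of the 9 genes on the T lineage list 1 rose and 1 fell with ICN, where 6.44% of all genes rose and 9.42% fell. With MEF2C and ICN 1 rose and 1 fell (*PTPRC*), where 5.84% rose and 10.9% fell. On OP9-DL1 against OP9-GFP without dox 2 rose and 0 fell, where 1.02% rose and 0.612% fell. With MEF2C on OP9-DL1 0 rose and 4 fell, where 2.57% rose and 3.33% fell. *CD5* ran from 4.95 to 6.76, and *CD2*, *CD4*, *CD8A*, *CD8B* and *CD34* each spanned 0.25 to 0.51, between 3.37 and 5.91. Of the B lineage markers *CD79A* ran from 6.01 to 8.05 and *CD79B* from 7.11 to 7.82, while *MS4A1* (3.71 to 4.26), *PAX5* (4.94 to 5.16) and *CD22* (4.95 to 5.28) lay under or near the array medians. *CD79A* rose with ICN by 0.66 (adjusted p = 0.0040) and fell on OP9-GFP against medium without dox by 0.72, and without dox it was lower by 1.58 in the MEF2C and ICN line than in the MEF2C line. No detection call was given and array values have no true zero, so a level near or under the array medians (4.76 to 4.84) is not shown to be above background, and differences that involve such a level are given as measured and may understate the change.

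With MEF2C induced *CD3D* fell in every culture, and *TRAT1* fell in medium and on OP9-GFP. *CD3D*, the delta chain, read 11.42, 11.26 and 11.34 with dox in medium, against 11.91, 11.92 and 11.95 without. On OP9-GFP it read 11.08, 11.09 and 11.07 with dox, against 11.76, 11.75 and 11.69 without, and on OP9-DL1 11.45, 11.47 and 11.40 with dox, against 12.17, 12.07 and 12.11 without. In each culture all 3 arrays with dox were below all 3 without. The log2 fold changes were -0.59 in medium (adjusted p = 9.0e-08), -0.65 on OP9-GFP (adjusted p = 1.6e-08) and -0.68 on OP9-DL1 (adjusted p = 9.1e-09), each with a standard error of 0.06 (limma, n = 3 arrays each), so levels with dox were 1.5-fold to 1.6-fold lower.

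*TRAT1* read 3.98, 4.76 and 4.21 with dox in medium, against 5.43, 5.67 and 5.36 without, and fell by 1.18 on the log2 scale (standard error 0.14, adjusted p = 1.1e-06). On OP9-GFP it read 5.85, 5.66 and 5.62 with dox, against 6.36, 6.63 and 6.28 without, and fell by 0.71 (adjusted p = 0.0011). On OP9-DL1 it read 6.88, 6.81 and 6.80 with dox, against 7.13, 7.42 and 7.18 without, where the log2 fold change of -0.41 did not pass (adjusted p = 0.101). The groups did not overlap in any of the 3 cultures. As the level in medium with dox is not shown to be above background, the fall in medium may be understated. The 3 *TRAT1* arrays in medium with dox spread more (SD 0.40) than those of any other condition (SD 0.02 to 0.18).

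The gamma and epsilon chains followed in part. *CD3G* read 9.31, 8.77 and 8.94 with dox in medium, against 9.56, 9.49 and 9.58 without, and fell by 0.54 on the log2 scale (adjusted p = 0.0017). On OP9-DL1 it read 9.25, 9.08 and 9.33 with dox, against 9.79, 9.77 and 9.59 without, and fell by 0.50 (adjusted p = 0.0044). On OP9-GFP the values overlapped, at 9.53, 9.53 and 9.35 with dox against 9.72, 9.40 and 9.60 without (log2 fold change -0.11, 95% confidence interval -0.33 to 0.11). *CD3E* passed on OP9-DL1 alone, with 7.45, 7.34 and 7.47 with dox against 7.77, 7.81 and 7.67 without (log2 fold change -0.33, adjusted p = 0.0257). Its values were -0.24 in medium (adjusted p = 0.109), where the groups did not overlap, and -0.18 on OP9-GFP (adjusted p = 0.270). In medium *CD3E* passed in limma with probe sets of a mean under 5 left out (adjusted p = 0.0461) and with quantile normalization repeated (0.0325). The *CD3E* call on OP9-DL1 was lost without any 1 of 4 of its 6 arrays (adjusted p = 0.0569 and 0.144 without dox replicate 1 or 2, and 0.0914 and 0.123 without replicate 1 or 2 of the arrays without dox). In fits of the 6 arrays of a culture alone, *CD3G* did not pass in medium (adjusted p = 0.0571) and *CD3E* did not on OP9-DL1 (0.0540).

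*CD247*, *TRBC1* and *PTCRA* did not pass in any culture on MEF2C induction. *CD247*, the zeta chain, had log2 fold changes of -0.08 for medium, 0.00026 for OP9-GFP and -0.25 for OP9-DL1 (adjusted p = 0.0961). On OP9-DL1 its groups did not overlap. There it passed in limma with probe sets of a mean under 5 left out (adjusted p = 0.0375) and with a trended and robust prior (0.0251). *TRBC1*, the constant part of the beta chain, lay between -0.06 and 0.03, and its 95% confidence intervals in the 3 cultures together covered -0.16 to 0.13. *PTCRA* lay between -0.16 and 0.01, with intervals that reach down to -0.39 on OP9-GFP. So 3 of 7 genes fell in medium, 2 of 7 with OP9-GFP stroma and 3 of 7 with OP9-DL1 stroma, and 0 rose, where 3.58%, 4.58% and 3.33% of all genes fell. The median log2 fold change of the 7 was -0.24 for medium, -0.16 for OP9-GFP and -0.33 for OP9-DL1, against -0.01, -0.03 and 0.01 over all genes.

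When the 3 cultures were pooled, 9 arrays with dox against 9 without, *CD3D*, *CD3E* and *CD3G* fell and *TRAT1* did not pass, although each of the 9 *TRAT1* values with dox lay under its own culture's mean without dox. *TRAT1* averaged 5.62 ± 1.11 with dox and 6.39 ± 0.77 without (SD, n = 9 arrays each). The difference of -0.77 had an adjusted p of 0.369 in limma. The cultures differ widely for this gene and their differences count as spread there. With the culture as a covariate its adjusted p was 6.1e-05. In this pooled comparison 3.79% of all genes fell. *CD3E* and *CD3G* each lost the call without replicate 1 (adjusted p = 0.0665 and 0.110), without replicate 3 (0.0722 and 0.158) and without OP9-DL1 (0.120 and 0.235), and *CD3G* also without medium (0.0596).

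**Figure D2:**
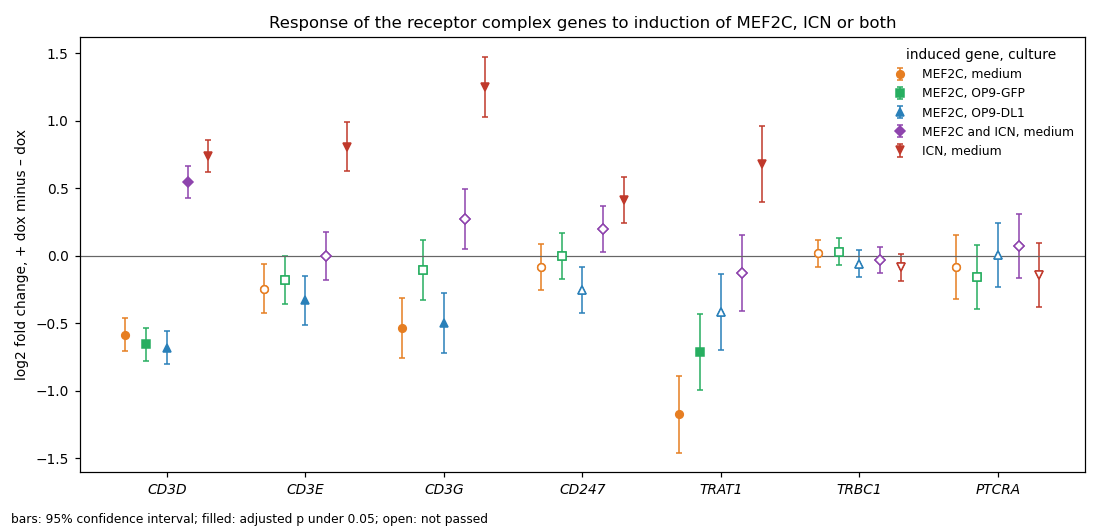
Response to dox as log2 fold change (vertical axis) for the 7 genes (horizontal axis), in the MEF2C line in 3 cultures, in the MEF2C and ICN line, and in the ICN line. Bars are 95% confidence intervals, filled symbols passed at an adjusted p under 0.05 and open symbols did not. *CD3D* is below 0 in every culture of the MEF2C line and above 0 in both lines with ICN, and *CD3E* and *CD3G* passed above 0 with ICN alone.

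On the stroma with the ligand *CD3D* and *TRAT1* were higher than on the stroma without it, with dox and without. On OP9-DL1 without dox *CD3D* read 12.17, 12.07 and 12.11, against 11.76, 11.75 and 11.69 on OP9-GFP, and rose by 0.38 (standard error 0.06, adjusted p = 3.1e-04). *TRAT1* rose by 0.82 (standard error 0.14, adjusted p = 9.3e-04) and *TRBC1* by 0.20 (adjusted p = 0.0334), at 13.42, 13.41 and 13.40 against 13.28, 13.13 and 13.23. This makes 3 of 7 genes that rose and 0 that fell, where 1.02% of all genes rose. With MEF2C induced *CD3D* rose on OP9-DL1 against OP9-GFP by 0.36 (adjusted p = 8.2e-04) and *TRAT1* by 1.12 (adjusted p = 1.2e-05), 2 of 7, where 0.92% of all genes rose. *TRAT1* was 1.76-fold higher on OP9-DL1 without dox and 2.17-fold higher with dox.

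In the same comparison *CD3E* and *CD3G* did not pass, with log2 fold changes of 0.14 and 0.14 without dox (95% confidence intervals -0.04 to 0.32 and -0.08 to 0.36) and of -0.01 and -0.25 with dox. *CD247* was 9.83, 9.72 and 9.82 on OP9-DL1 without dox, against 9.65, 9.34 and 9.56 on OP9-GFP, without overlap but not past the threshold (0.27, adjusted p = 0.120). The effect of MEF2C induction on OP9-DL1 minus that on OP9-GFP passed for 0 of 7 genes, where 0.131% of all genes passed in either direction. It was -0.39 for *CD3G*, 0.30 for *TRAT1* and -0.25 for *CD247* (adjusted p in limma 0.479, 0.752 and 0.60). Fitted on the 6 arrays of the 2 stromal cultures without dox alone, *CD3D*, *TRAT1* and *TRBC1* did not pass (adjusted p = 0.246, 0.0576 and 0.689), and with dox *CD3D* did not (0.0507). The *TRBC1* call was also lost without any 1 of 5 of these 6 arrays (adjusted p = 0.0509 to 0.170).

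Between OP9-GFP and medium *TRAT1* and *CD3D* differed in opposite directions. On OP9-GFP without dox *TRAT1* read 6.36, 6.63 and 6.28, against 5.43, 5.67 and 5.36 in medium, and rose by 0.94 (adjusted p = 1.5e-05). With dox it rose by 1.4 as measured (adjusted p = 4.1e-08), against the dim level in medium. *CD3D* fell by 0.19 without dox (adjusted p = 0.0236) and by 0.26 with dox (adjusted p = 0.0022), and *TRBC1* fell by 0.18 (adjusted p = 0.0095) and by 0.16 (adjusted p = 0.0164). *CD3G* rose by 0.46 with dox (adjusted p = 0.0029) and had 0.03 without. That is 1 gene up and 2 down without dox, where 10.8% of all genes rose and 11.5% fell, and 2 up and 2 down with dox, where 7.64% rose and 13% fell. Without dox the *CD3D* call was lost without OP9-GFP replicate 3 or medium replicate 2 or 3 (adjusted p = 0.0813, 0.0509 and 0.0773) and the *TRBC1* call without OP9-GFP replicate 2 (0.0579), and with dox the *TRBC1* call without medium replicate 1 or 3 (0.0584 and 0.0547). In fits of the 6 arrays alone *CD3D* (0.321) and *TRBC1* (0.389) did not pass without dox, nor *CD3G* (0.0549) and *TRBC1* (0.114) with dox.

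With ICN induced the 3 CD3 genes, the zeta chain gene and *TRAT1* rose above a baseline in which *HES1* was already high. *CD3G* read 10.71, 10.87 and 10.81 with dox, against 9.60, 9.52 and 9.51 without, and rose 2.38-fold (log2 fold change 1.25, standard error 0.11, adjusted p = 2.4e-09). *CD3E* read 8.73, 8.25 and 8.53 with dox, against 7.68, 7.74 and 7.67 without (0.81, standard error 0.09, adjusted p = 1.4e-07), and *CD3D* 13.11, 12.95 and 12.96, against 12.32, 12.21 and 12.27 (0.74, standard error 0.06, adjusted p = 5.7e-10). In all 3 genes the arrays with ICN induced stood above every other array of the series. *TRAT1* read 8.70, 8.53 and 8.54 with dox, against 7.79, 8.10 and 7.83 without (0.68, adjusted p = 8.9e-04), and *CD247* 9.998, 10.31 and 10.30, against 9.82, 9.73 and 9.83 (0.41, adjusted p = 9.5e-04). *TRBC1* (-0.09, adjusted p = 0.293) and *PTCRA* (-0.14, adjusted p = 0.514) did not pass. Altogether 5 of 7 genes rose, where 6.44% of all genes rose, and the median of the 7 was 0.68 against -0.03 over all genes. The *CD247* call was lost in a fit of these 6 arrays alone (adjusted p = 0.0589) and as the mean of its 2 probe sets (0.18, adjusted p = 0.0526).

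With MEF2C induced beside ICN, only *CD3D* of the 7 rose. *CD3D* read 12.27, 12.34 and 12.30 with dox, against 11.74, 11.69 and 11.84 without (0.55, standard error 0.06, adjusted p = 8.2e-08). *CD3E* read 7.62, 7.62 and 7.68 with dox, against 7.58, 7.69 and 7.65 without, and overlapped. *CD3G* read 9.38, 9.59 and 9.66 with dox, against 9.21, 9.27 and 9.34 without, and did not pass (0.27, adjusted p = 0.104). Here 5.84% of all genes rose. *CD247* was at 0.20 (adjusted p = 0.131) and *TRAT1* at -0.13 (adjusted p = 0.639).

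The difference between these 2 responses was tested itself. MEF2C and ICN induction minus ICN induction came to -0.98 for *CD3G* (standard error 0.15, adjusted p = 6.3e-05), -0.81 for *CD3E* (standard error 0.12, adjusted p = 4.9e-05) and -0.81 for *TRAT1* (standard error 0.19, adjusted p = 0.0075), which makes 3 of 7 lower, where 6.08% of all genes were lower. For *CD3D* it was -0.19 with a 95% confidence interval of -0.36 to -0.02 and did not pass (adjusted p = 0.186). MEF2C and ICN induction minus MEF2C induction in medium came to 1.13 for *CD3D* (adjusted p = 1.7e-10), 1.05 for *TRAT1* (adjusted p = 4.9e-04) and 0.81 for *CD3G* (adjusted p = 6.0e-04), 3 of 7 higher, where 2.94% of all genes were higher. Both differences use the same arrays of the MEF2C and ICN line and compare separately made lines, so line and construct cannot be told apart.

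The lines also differed without dox, most of all in *TRAT1*, and the Notch target *HES1* differed there as well (by 4.61 and 3.75, above). For *TRAT1* ICN cells without dox read 7.79, 8.10 and 7.83 and MEF2C and ICN cells without dox 7.5, 7.54 and 7.51, against 5.43, 5.67 and 5.36 in MEF2C cells without dox in medium. *TRAT1* was thus 5.35-fold higher in the ICN line (log2 2.42, adjusted p = 9.8e-13) and 4.07-fold higher in the MEF2C and ICN line (log2 2.02, adjusted p = 3.0e-11), a gap wider than any response of *TRAT1* to dox. *CD3D* was higher by 0.34 in the ICN line (adjusted p = 9.9e-05), and *CD247* by 0.33 in the MEF2C and ICN line (adjusted p = 0.0050), where *CD3D* was lower by 0.17 (adjusted p = 0.0454). *CD3E* and *CD3G* did not pass in either, at -0.02 and -0.00084 in the ICN line and -0.07 and -0.27 in the MEF2C and ICN line. Of all genes 12.9% were higher in the ICN line, and 12% were higher and 11.9% lower in the MEF2C and ICN line. The 2 comparisons share the arrays of the MEF2C line, and leak of the construct and differences between lines cannot be told apart. The *CD3D* call in the MEF2C and ICN line was lost without any 1 of 5 of the 6 arrays (adjusted p = 0.0730 to 0.171), and the *CD247* call as the mean of its 2 probe sets (adjusted p = 0.268).

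Ordered by condition mean, *TRAT1* ran from the MEF2C line in medium through OP9-GFP and OP9-DL1 to the lines with ICN, and 7 of its 9 neighbouring pairs of conditions did not overlap. *CD3D* had its lowest 3 means in the MEF2C line with dox, at 11.08 on OP9-GFP, 11.34 in medium and 11.44 on OP9-DL1, of which the last 2 overlapped. *CD3E* had overlapping neighbours in all 9 conditions below ICN with dox, from 7.42 to 7.75, and then a gap to 8.50. *CD3G* had means of 9.01 to 9.72 in those 9 conditions, with 1 gap between neighbours, and 10.79 with ICN. *CD247* had means of 9.79 to 10.2 in the lines with ICN, against 9.52 to 9.79 in the MEF2C line. For *PTCRA* every neighbouring pair overlapped, from 6.39 with ICN induced to 6.71 on OP9-GFP without dox.

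The genes most like each member over the 10 conditions were found among 1578 genes with a mean of at least 6 and an SD of condition means of at least 0.3, by Pearson's r with 10 points that share lines. *CD3E* and *CD3G* were both closest to *CLDND1* (r = 0.99 and 0.93), a claudin domain protein gene. The next were *ATP2B1-AS1* and the matrix metalloproteinase *MMP9* for *CD3E* (0.97 and 0.95), and *FBXO6* and the histone deacetylase *HDAC4* for *CD3G* (0.92 and 0.92). *CD3D* was closest to *C12orf57* (0.98), *PLAAT4* (0.96) and *SUSD4* (0.95). *CD247* was closest to the Wnt pathway factor *TCF7L2* (0.97), *SRBD1* (0.96) and *TK2* (0.95), and *TRAT1* to the phospholipase *PLCB1* (0.95), the G protein subunit *GNA12* (0.94) and *BCL7B* (0.94). The values for *TRBC1* (*ANKRD36C* 0.89, *ATF3* 0.86, *ZNF143-AS1* 0.84) and *PTCRA* (*HBB* 0.78, *TSC22D3* 0.66, *STAC* 0.66) were lower. The span of *PTCRA* was 2.22 times its SD within conditions and that of *TRBC1* 9.42 times.

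The receptor's own variable chains are poorly covered. Of 20 genes of the chain loci on the list used, 3 have a probe set of their own, *TARP*, *TRBV27* and *TRDV3*. *TRDV3*, a variable segment of the delta chain, fell with MEF2C by 0.31 (medium), 0.41 (OP9-GFP) and 0.39 (OP9-DL1), with ICN by 0.31 and with MEF2C and ICN by 1.02 (adjusted p = 1.0e-13), and without dox was lower in the ICN line (-0.39) and in the MEF2C and ICN line (-0.39) than in the MEF2C line. *TARP* fell on OP9-DL1 with MEF2C by 0.68 and with ICN and with both by 0.47 and 0.44, and was higher on OP9-DL1 than on OP9-GFP without dox by 0.66, and in the ICN line and the MEF2C and ICN line than in the MEF2C line without dox by 0.99 and 0.33, with condition means near the array medians (4.57 to 5.67). *TRBV27*, with means of 2.92 to 3.26, passed in 0 of the 15 comparisons. A further 4 probe sets carry several symbols of the gamma chain locus and cannot be given to 1 gene, and they were looked at after the values of *TRAT1* had been seen. Their means were 4.49 to 4.96 in medium with MEF2C induced, against 6.39 to 7.05 without dox, 5.68 to 6.19 on OP9-GFP with dox, against 8.67 to 9.34 without, and 8.86 to 9.52 on OP9-DL1 with dox, against 11.44 to 12.03 without. The means in medium with dox lie near the array medians and are not shown to be above background, so the fall in medium (log2 fold changes as measured -2.12 to -1.64) may be understated. All 4 also fell on OP9-GFP (-3.15 to -2.97) and on OP9-DL1 (-2.57 to -2.49), rose on OP9-DL1 against OP9-GFP (2.68 to 2.77 without dox and 3.18 to 3.33 with dox), and were higher in the ICN line than in the MEF2C line, both without dox, by 5.07 to 5.22.

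Over the 10 conditions these gamma probe sets correlated with *TRAT1* at 0.91 to 0.93, with *CD3D* at 0.72 to 0.73, and with *CD3E*, *CD3G* and *CD247* at 0.56 to 0.59. On ICN induction they had log2 fold changes of -0.26 to -0.20, of which 1 of 4 passed, while *CD3D*, *CD3E*, *CD3G*, *CD247* and *TRAT1* rose. With MEF2C and ICN they fell by 0.94 to 1.10 on the log2 scale.

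**Figure D3:**
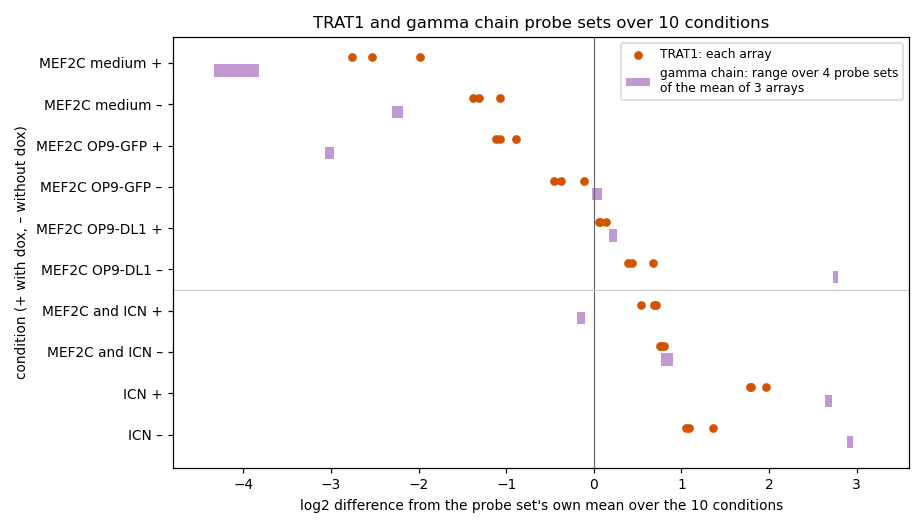
Log2 difference of *TRAT1* (points, each array) and of 4 gamma chain probe sets (bars, range of their means of 3 arrays) from each probe set's own mean over the 10 conditions (horizontal axis), by condition (vertical axis). Both are lowest in medium with MEF2C induced. In the ICN line *TRAT1* was 0.68 higher with dox and the gamma chain probe sets had log2 fold changes of -0.26 to -0.20.

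The genes that act just inside the receptor were counted on a list of 37 kinases, adaptors, costimulators and phosphatases, of which 34 are measured. On MEF2C induction 8 fell and 3 rose in medium, 13 fell and 3 rose on OP9-GFP, and 13 fell and 4 rose on OP9-DL1, with medians of -0.08, -0.21 and -0.19 against -0.01, -0.03 and 0.01 over all genes. Of all genes 3.58%, 4.58% and 3.33% fell and 5.03%, 3.03% and 2.57% rose. *LAT*, the membrane scaffold, fell by 1.14, 1.17 and 0.97 in these cultures on the log2 scale, *TESPA1* by 1.00, 0.82 and 0.81, and the Tec family kinase *TXK* rose by 1.66, 1.42 and 1.32. The phosphatase *PTPN22* fell by 0.67 in medium and 0.77 on OP9-GFP, and *CD5*, a surface restraint on receptor signals, by 0.83 on OP9-DL1. On OP9-DL1 against OP9-GFP 2 rose and 1 fell without dox, *LCK* (0.28), the costimulator *CD28* (0.46) and the adaptor *FYB1* (-0.41), and with dox *CD28* rose (0.95) and *FYB1* fell (-0.53), where 0.612% and 0.48% of all genes fell and 1.02% and 0.92% rose. On OP9-GFP against medium 9 rose and 2 fell without dox, and 4 rose and 9 fell with dox, where 10.8% and 7.64% of all genes rose and 11.5% and 13% fell. *CD28* fell in both (-0.77 and -0.96).

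With ICN induced 7 of the 34 rose and 13 fell, where 6.44% of all genes rose and 9.42% fell. Among them were the phosphatase *PTPN6* (1.36), *CD28* (1.15), the kinase *FYN* (1.11) and *RHOH* (-1.18). *LCK*, the kinase that acts on the CD3 tails, rose by 0.98 (adjusted p = 4.8e-12). With MEF2C and ICN 6 rose and 17 fell, where 5.84% of all genes rose and 10.9% fell, with *LAT* at 5.36 ± 0.39 with dox and 8.31 without, a log2 fold change of -2.95, the thymocyte selection gene *THEMIS* at -2.99, *PTPRC* at -1.66 and *CD28* at 2.79. *LCK* fell there by 0.34 (adjusted p = 2.2e-04), and the difference between the 2 responses of *LCK* was -1.32 (adjusted p = 2.4e-11), while that of *LAT* was -3.35 (adjusted p = 2.5e-13). Without dox *THEMIS* was higher in the ICN line by 2.82 and in the MEF2C and ICN line by 3.93 than in the MEF2C line, and *CD28* was lower in the MEF2C and ICN line by 3.99 on the log2 scale. These are differences as measured, since *THEMIS* in the MEF2C line (2.19) and in the MEF2C and ICN line with dox (3.13) and *CD28* in the MEF2C and ICN line without dox (4.34) are under the array medians. The medians of the list were -0.07 with ICN and -0.24 with both, against -0.03 and 0.02 over all genes.

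Some markers of other cell types moved with dox as well. Over the pooled cultures 1 of 8 NK, 1 of 5 myeloid, 2 of 10 stromal, 3 of 9 T lineage and 0 of 5 B lineage markers fell, and 0 rose in limma (adjusted p under 0.05), where 3.79% of all genes fell and 3.4% rose. With MEF2C in medium 2 of 8 NK, 2 of 5 myeloid, 2 of 10 stromal, 0 of 9 T lineage and 0 of 5 B lineage markers fell. There 0 rose, where 3.58% of all genes fell and 5.03% rose. A summed linear level weighs the brightest genes most, such as *PRF1* and *NKG7* among the NK markers. The sum of 8 NK cell markers was 1325 to 1386 in medium with dox, against 1870 to 1963 without, and that of 5 myeloid markers 120.4 to 135 against 183 to 189. That of 5 B lineage markers overlapped, at 417 to 519 with dox against 483 to 537 without. For 10 stromal markers it was 752 to 774 in medium with dox, against 940.3 to 1059 without, 696 to 730.0 against 942 to 988 on OP9-GFP, and 666 to 711 against 875 to 933 on OP9-DL1. The ranges of the stromal sum in coculture did not exceed those in medium. The probes are human, and mouse RNA from the stroma was not measured. With MEF2C and ICN the NK markers summed to 821 to 864 with dox against 1374 to 1434, and with ICN to 1201 to 1360 against 1437 to 1476. Condition means ran from 8.13 to 10.30 for the NK gene *PRF1*, from 8.48 to 9.56 for *NKG7* and from 8.31 to 9.32 for the stromal gene *SPARC*. They ran from 6.90 to 7.38 for *COL1A1*, from 4.08 to 7.32 for *COL6A3* and from 5.07 to 6.59 for *NCR3*. The myeloid gene *LYZ* ran from 3.10 to 5.72 and *ITGAM* from 3.35 to 7.39. *ITGAM* fell with MEF2C in medium (-0.71) and on OP9-GFP (-0.74) and with ICN (-1.50), rose on OP9-GFP against medium (0.95 without dox and 0.92 with dox), and without dox was higher in the ICN line (0.86) and lower in the MEF2C and ICN line (-2.69) than in the MEF2C line. Of these lists *GNLY*, *KLRD1*, *KLRF1*, *CD14*, *MPO*, *LUM*, *POSTN*, *COL3A1* and *PDGFRB* stayed under the array medians in every condition. The part of these in the results on the receptor genes was not tested. As the arrays measure bulk RNA, fewer cells with a transcript and less of it per cell cannot be told apart.

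The other probe sets of the genes gave a partial check. The dimmer probe set of *CD247* passed in 0 comparisons, and so did the further ones of *PTCRA*. The dimmest of *PTCRA* had condition means of 4.61 to 4.76, not above the array medians, and is not shown to be above background. Of *TRBC1* 1 further probe set rose on OP9-DL1 against OP9-GFP without dox by 0.26 (adjusted p = 0.0036), and fell on OP9-GFP against medium by 0.19 without dox and 0.19 with dox, in the directions of the brightest, and the other passed in 0. The beta constant genes *TRBC1* and *TRBC2* are near-identical, and their signals cannot be told apart with certainty.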

How the data were processed

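Per the sample notes and the study's methods, the authors ran RMA on the arrays and deposited 1 log2 value per probe set, after background correction, quantile normalization across arrays and median polish. Shifts in total RNA per cell are therefore removed. The processing notes of the submitters list affy 1.64.0 beside R 3.6.3. Conditions came from the sample labels. Control probe sets (62) were left out, and symbols came from the platform annotation, which gave 41097 of 54675 probe sets 1 symbol.

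Comparisons were tested with limma 3.58.1 (R 4.3.3), with Benjamini-Hochberg adjustment across all 54613 probe sets, and a gene rose or fell at an adjusted p under 0.05. The pooled comparison used 18 arrays and no covariate, following the study. A single model of 10 conditions and 30 arrays gave the other 14 comparisons, so those that share arrays are not independent. An array has no read depth, and the number of arrays limits precision. The steps were tested on simulated data. Of 435 pairs of arrays 0 were identical.

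The genes, lists and alternatives were chosen with earlier results of these data known. Named beside the 7 genes are the 3 genes most like each, up to 4 list genes per comparison with the largest change, and genes that check the labels. *TRDV3*, *TARP*, *TRBV27*, the markers given by range, *LCK* and *PTPRC* in the lines with ICN, and the gamma chain probe sets were named after their values had been seen.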

Additional observations from a re-analysis of the deposited data

Results flagged for a closer look

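For 6 results the response to dox differed between lines by limma's test of the difference. MEF2C and ICN induction minus ICN induction was -0.81 for *CD3E*, -0.98 for *CD3G* and -0.81 for *TRAT1*. MEF2C and ICN induction minus MEF2C induction in medium was 1.13 for *CD3D*, 0.81 for *CD3G* and 1.05 for *TRAT1*. Dixon's test flagged no array of the pooled conditions for the 7 genes. Each pooled group mixes cultures, and differences between them widen the range against which the test sets a gap. For *TRAT1*, whose cultures differ widely, it could hardly flag an array that stood apart within its own culture. No conclusion on outlying arrays is drawn from it.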

How the results depend on the processing

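The 7 genes made 40 calls over 15 comparisons. Of 639 values of these calls under other settings 574 kept direction and call, 65 lost the call and 0 reversed. Under the study's thresholds (q under 0.1, p under 0.05 and at least 0.6 log2 units) 1 gene was called in the pooled comparison, against 3, and 1 each for MEF2C in medium and on OP9-DL1, OP9-DL1 against OP9-GFP and OP9-GFP against medium with dox and without, and both comparisons of lines without dox, and 0 with MEF2C and ICN, against 1. Without the culture on OP9-DL1 the pooled comparison called 1. With the groups compared alone, without the other arrays, OP9-DL1 against OP9-GFP called 0 without dox and 1 with dox, and OP9-GFP against medium called 1 without dox and 2 with dox. Leaving out 1 replicate gave 1 to 3 calls in the pooled comparison and 1 to 2 with MEF2C and ICN, where *CD3G* passed without replicate 1 with dox (adjusted p = 0.0490).

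Same-numbered arrays with dox and without correlated at -0.09 to 0.19 after removal of the condition means. Differently numbered arrays were not set beside them, so whether the replicate numbers pair the arrays was not tested. With the replicate block 41 calls were made, 1 more (*TRAT1* on OP9-DL1, adjusted p = 0.0498), and 0 were lost. Array precision rests on 3 arrays a condition, no detection call was given, and lines, constructs and dox cannot be told apart.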
